A study of Rattus norvegicus with 8 samples.

Results

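Nuclear-encoded subunits of the mitochondrial respiratory chain were examined in rat oesophagus, in neoplastic epithelium and in the adjacent normal tissue of the same animals. The set of 40 genes comprised 21 subunits of complex I, 3 of complex II, 6 of complex III, cytochrome c and 9 of complex IV, among them Ndufa4, which is named for complex I but is a subunit of complex IV. Members were taken by gene symbol, with the probe set of highest mean signal standing for each gene. The rule itself uses no comparison between groups, but the set was drawn up with earlier results of these data known. Of the 40 genes, 39 had a probe set annotated with their symbol alone among the 22093 genes measured. Cox7c, a complex IV subunit found only on a probe set of several symbols, was not analysed.

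The respiratory chain passes electrons from NADH (complex I) and succinate (complex II) through complex III and the mobile carrier cytochrome c to oxygen at complex IV, and the energy released pumps protons that drive ATP synthesis. Most subunits are encoded in the nucleus, and a few core subunits in the mitochondrial genome. Complexes I and II take up electrons through flavins, cofactors made from riboflavin. Some complex IV subunits exist as an isoform of heart and skeletal muscle and another of most other tissues, and in the rat the muscle coat of the oesophagus is striated.

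All animals, controls of the diet included, received N-nitrosomethylbenzylamine (NMBA), a nitrosamine that induces tumours of the rat oesophagus, by subcutaneous injection of 0.35 mg/kg given 3 times a week over 5 weeks, and were killed at week 25. They were fed a riboflavin-normal diet (RcN+) or a riboflavin-deficient diet (R0N+) throughout. The 8 arrays came from 4 rats, 2 per diet, and each rat gave 1 array of neoplasia and 1 of adjacent normal tissue, so that tissues were compared within rats and diets between rats. Strain, sex and age are not given in the sources used here, the tissue was fixed and embedded in paraffin before RNA was extracted, and no rat without NMBA is part of the comparison. Rats are called 1 and 2 within each diet, after the replicate numbers of the labels.

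The arrays were not alike in quality. Positive and negative control probe sets separated with an area under the curve (0.5 is none, 1 is complete) of 0.577 and 0.757 in adjacent normal tissue of riboflavin-normal rats 1 and 2, and of 0.696 and 0.694 in their neoplasia. In riboflavin-deficient rats the values were 0.659 and 0.598 in adjacent normal tissue and 0.617 and 0.600 in neoplasia. Squamous epithelium markers (14 of 15 measured) had array medians of 8.06 to 13.61 log2 units, against 4.99 to 5.17 for all genes, with the lowest median in adjacent normal tissue of riboflavin-normal rat 1. Skeletal muscle markers (34 of 35 measured) had array medians of 8.90 to 11.91 and thus lay far above the median of all genes on every array, those of epithelial neoplasia included. Their summed level, as log2, was 19.22 and 20.35 in the adjacent tissue of rats on the normal diet, against 19.04 and 19.10 in their neoplasia. Rats on the deficient diet had 19.90 and 18.15 in the adjacent tissue, against 18.38 and 18.43 in the neoplasia. No marker was at 0. In such bulk samples, fewer cells of a type and less RNA per cell cannot be told apart.

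To show what lies upstream of these genes, 4 promoters are printed, each as the 250 bases before the annotated start of the gene on its own strand, from RefSeq (build GRCr8). Cox6a2, the complex IV isoform of heart and skeletal muscle, is the muscle-type member. Cox8a, the isoform of most tissues of another complex IV subunit, was the member higher in all 4 neoplasias. Uqcrc2 and Uqcrc1, the core proteins of complex III, hold different motifs. Capitals mark the motif CCGGAAG of ETS factors in Cox8a and Uqcrc2, the motif of NRF1 (GCGCA, any base, then GCGC) in Uqcrc1, and in Cox6a2 the E-boxes (CANNTG) and a site of the MEF2 type (CTA, AAAA and TAG in a row), a motif added to the search after this sequence had been seen. All motifs were searched on both strands.
Cox6a2 (chr1:192219717-192219966, minus strand): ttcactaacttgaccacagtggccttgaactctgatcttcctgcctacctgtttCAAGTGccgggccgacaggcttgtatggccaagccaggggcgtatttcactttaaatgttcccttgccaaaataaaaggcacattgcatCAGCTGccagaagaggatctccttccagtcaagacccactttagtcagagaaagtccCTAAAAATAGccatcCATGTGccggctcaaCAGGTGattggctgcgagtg
Cox8a (chr1:213833624-213833873, minus strand): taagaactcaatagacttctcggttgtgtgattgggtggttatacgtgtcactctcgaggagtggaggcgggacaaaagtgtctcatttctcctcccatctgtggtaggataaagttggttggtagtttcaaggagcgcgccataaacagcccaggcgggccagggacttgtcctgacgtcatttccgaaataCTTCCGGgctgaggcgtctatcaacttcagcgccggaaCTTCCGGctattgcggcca
Uqcrc2 (chr1:184598990-184599239, plus strand): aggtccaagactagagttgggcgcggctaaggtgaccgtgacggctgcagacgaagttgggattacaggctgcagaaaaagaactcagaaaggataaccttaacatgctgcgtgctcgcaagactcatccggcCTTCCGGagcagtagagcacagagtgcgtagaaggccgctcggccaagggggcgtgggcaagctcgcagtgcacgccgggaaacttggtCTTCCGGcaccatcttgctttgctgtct
Uqcrc1 (chr8:118467973-118468222, plus strand): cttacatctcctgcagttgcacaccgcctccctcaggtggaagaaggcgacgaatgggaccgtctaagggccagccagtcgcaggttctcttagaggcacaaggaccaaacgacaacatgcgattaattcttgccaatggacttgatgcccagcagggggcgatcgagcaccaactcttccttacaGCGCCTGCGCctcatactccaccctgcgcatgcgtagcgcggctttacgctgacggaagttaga

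The promoter table held 35 of the 39 measured members, and Cox6c, Ndufa8, Ndufb9 and Uqcrb had no match in it. From 250 bases before to 50 bases after the start, 13 of the 35 promoters (37.1%) held CCGGAAG, against 9.22% of the 27457 promoters in the table. By complex the motif was found in 2 of 3 promoters of complex II, 3 of 5 of complex III, 3 of 7 of complex IV and 5 of 19 of complex I. Cox8a, Cox4i1, Uqcrc2, Sdhd and Ndufa1 each held it at 2 positions. The NRF1 motif was found in 2 members, Ndufa5 and Uqcrc1 (5.71%, against 4.71% of all promoters). A GC box (GGGCGG) was present in 37.1% of members and 34.9% of all promoters, CCAAT in 34.3% and 37.7%, CANNTG in 57.1% and 71.6%, and TATAAA in 2.86% (Ndufa2 alone) and 14.3%. The MEF2 motif was present in Cox6a2 alone of the 35 members (2.86%) and in 0.135% of all promoters. GC content had a median of 58.0% in members and 52.33% in all promoters. The Cox6a2 promoter thus held 4 E-boxes and no CCGGAAG, and that of Cox8a held 2 copies of CCGGAAG and 1 E-box. These matches describe sequence and were not related to binding in this tissue.

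Most members were measured well above the bulk of the genes. Over the 8 arrays, 37 of the 39 had a mean signal above 5.11, the median of the gene table, and on each array 31 to 35 lay in the upper quartile of that array. The array median of the 39 members was 6.94 and 8.45 in adjacent normal tissue of riboflavin-normal rats 1 and 2, and 7.09 and 7.52 in their neoplasia. In riboflavin-deficient rats it was 7.20 and 6.63 in adjacent normal tissue and 6.80 and 6.65 in neoplasia. A single array stood apart, the adjacent normal tissue of riboflavin-normal rat 2. Of the 39 members, 27 (69.2%) had their highest signal there, as did 17.8% of all genes, 35 of 46 cytosolic ribosomal protein genes and 27 of 34 skeletal muscle markers. This array also had the best separation of controls (0.757), the highest ribosomal median (11.10, against 8.69 to 10.78 on the others) and the highest skeletal muscle median (11.91, against 8.90 to 10.74). Fewer of its probe sets were at the ceiling of the scale, 469 against 1479 to 1748. Members had their lowest signal mostly in riboflavin-deficient rat 2, 13 in neoplasia and 12 in adjacent normal tissue, where 9.58% and 8.77% of all genes were lowest.

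**Figure D1:**
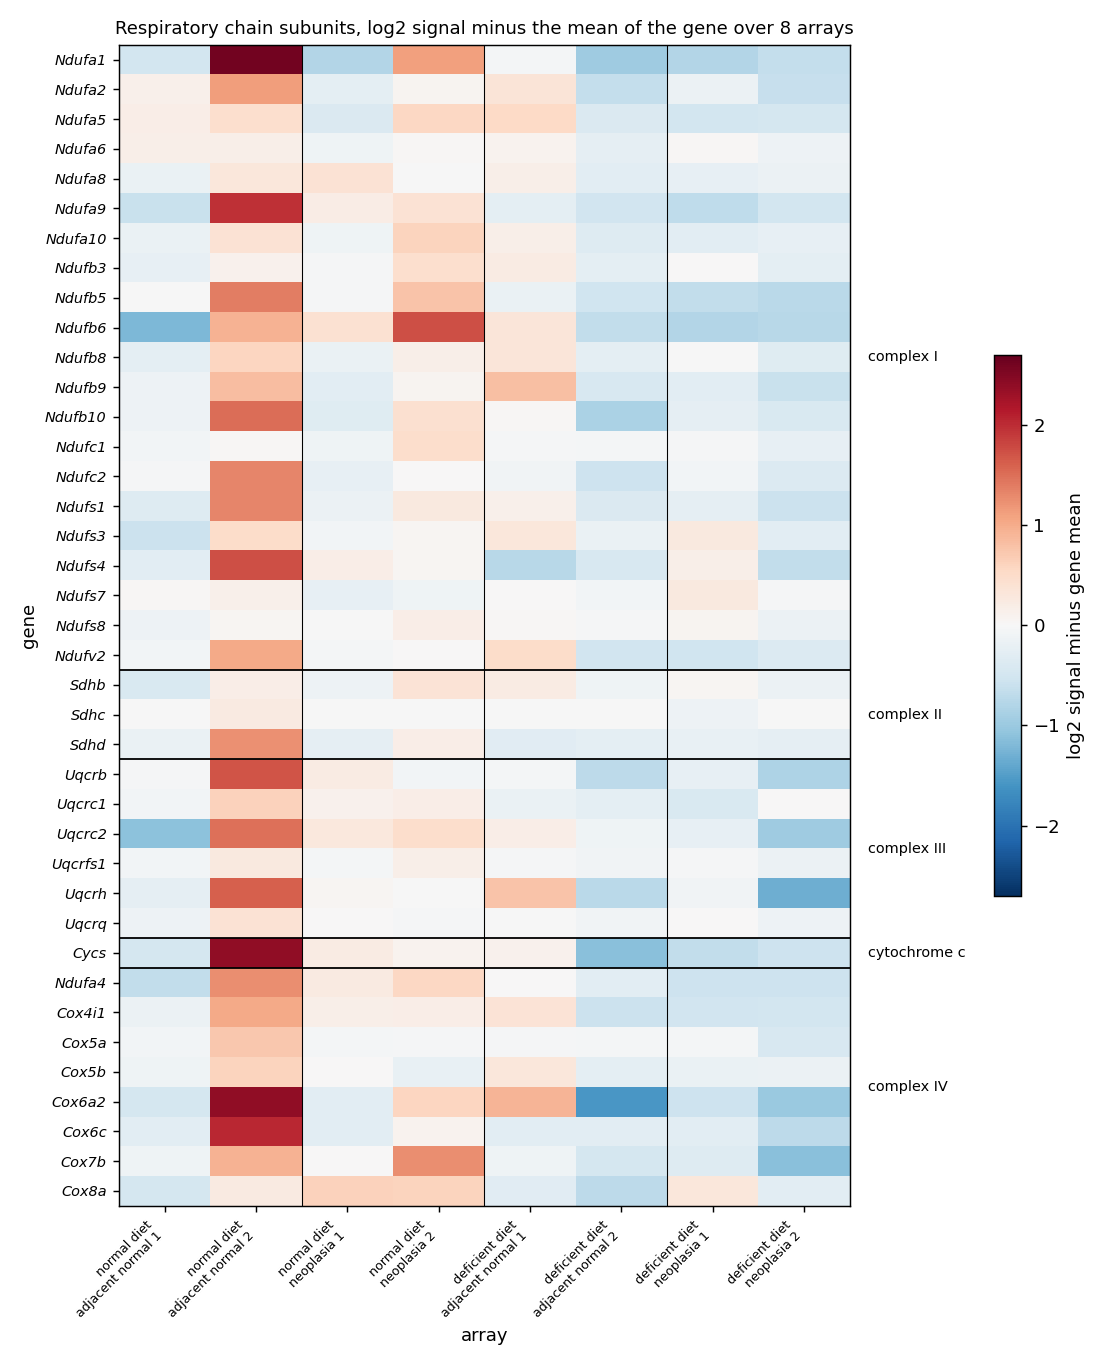
Log2 signal of 39 respiratory chain genes (rows, by complex) on the 8 arrays (columns, by diet and tissue, numbered by rat), shown as the difference from the mean of each gene over all arrays. The column of adjacent normal tissue of riboflavin-normal rat 2 is the highest for 27 of the 39 genes.

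Members of higher signal varied more between arrays. Among the 13 members of highest mean signal (7.82 to 12.50) the range over the 8 arrays had a median of 2.39 log2 units, among the next 13 it was 1.88, and among the 13 of lowest signal (4.57 to 6.46) it was 0.69. Signals of different probe sets are not a measure of relative abundance. Cox6a2 had the highest mean signal (12.50), and Ndufa6, an accessory subunit of complex I that binds the mitochondrial acyl carrier protein, the lowest (4.57). Ndufa6 read 4.74 and 4.72 in adjacent normal tissue and 4.47 and 4.62 in neoplasia of riboflavin-normal rats 1 and 2, and 4.67 and 4.33, then 4.60 and 4.44, in the same tissues of riboflavin-deficient rats. All 8 of its values lay below the table median, so that its small differences are differences at low signal. Across the 8 arrays the correlation of a member with the median of the other members ran from 0.24 (Ndufs7) to 0.98 (Ndufs1) and was over 0.8 for 26 of the 39, where the points share the array and its quality.

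The comparison of neoplasia with adjacent normal tissue asked how the chain differed in the tumour of the same rat. Neoplasia was lower by a median of 0.21 log2 units over the 39 members, with 33 lower and 6 higher, while the median of all genes was 0.00. No gene and no member passed an adjusted p of 0.05 in limma (0% of genes called, adjusted p = 1 for each member). At an unadjusted p under 0.05 were 2 members, Cox8a (higher) and Ndufa2 (lower), or 5.13% of members, against 485 genes (2.20%). With 4 pairs an exact test of a single gene cannot go below p = 0.125.

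The rats did not agree. Within riboflavin-normal rat 1 the member median was higher in neoplasia by 0.13 (26 members higher, 11 lower), and within riboflavin-normal rat 2 it was lower, at -0.68 (9 higher, 30 lower). Riboflavin-deficient rat 1 gave -0.27 (9 higher, 29 lower) and riboflavin-deficient rat 2 gave -0.03 (17 higher, 21 lower). Without riboflavin-normal rat 2 the median over both diets was -0.04 (15 of 39 higher), without riboflavin-normal rat 1 it was -0.48, and without riboflavin-deficient rat 1 it was -0.12. After quantile or cyclic loess normalization of the arrays, the median of riboflavin-normal rat 1 became -0.27 and -0.25, so the higher value in that rat held on the deposited scale and not on these. Skeletal muscle markers had deposited pair medians of -0.03, -1.59, -1.22 and 0.17 in riboflavin-normal rats 1 and 2 and riboflavin-deficient rats 1 and 2. Their sign was opposite to that of the members in riboflavin-normal rat 1 and riboflavin-deficient rat 2. All 34 were lower in the mean of both diets (median -0.67). Ribosomal protein genes gave 1.10, -0.40, -0.54 and -0.13, and the separation of controls changed by 0.119, -0.0633, -0.0416 and 0.00191 in the same order. In that order, smooth muscle markers (10) gave 0.25, -1.65, -0.32 and 0.11, fibroblast markers (8) gave 0.17, -1.72, -0.05 and -0.07, and squamous epithelium markers gave 3.02, 0.12, -1.31 and 0.13. The part of cell content and of array quality in the difference was not tested.

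**Figure D2:**
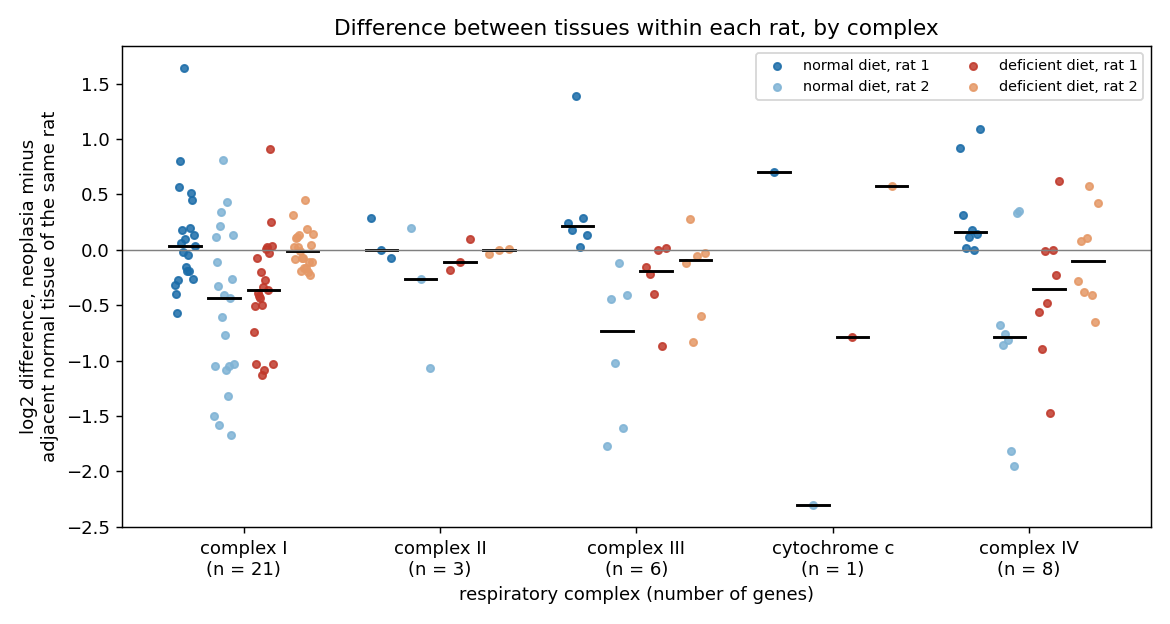
Log2 difference between neoplasia and adjacent normal tissue of the same rat for each gene (points), by complex, with a black line at the median of each rat. On the deposited scale plotted here, cytochrome c and every complex were lowest in riboflavin-normal rat 2, with medians of -0.43, -0.27, -0.73 and -0.79 in complexes I, II, III and IV. All 6 genes of complex III were higher in riboflavin-normal rat 1 on this scale. The direction of their median turned after quantile (-0.07) and cyclic loess (-0.09) normalization.

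Complex I oxidises NADH, and 17 of its 21 members were lower in neoplasia in the mean of both diets (median -0.18). Pair medians were 0.03 and -0.43 in riboflavin-normal rats 1 and 2 and -0.36 and -0.01 in riboflavin-deficient rats 1 and 2. The first became -0.36 after quantile normalization and -0.38 after cyclic loess. Ndufb5 and Ndufb9, accessory subunits of the membrane arm, were the only members lower in all 4 rats, as were 3.79% of all genes. Ndufb9 read 6.94 and 7.91 in adjacent normal tissue and 6.78 and 7.14 in neoplasia of riboflavin-normal rats, and 7.87 and 6.63 against 6.78 and 6.47 in riboflavin-deficient rats. Its groups overlapped within each diet, and in rat 1 of the riboflavin-normal diet and rat 2 of the deficient diet it was lower by no more than 0.16. The mean difference was -0.54 (SE 0.21, limma adjusted p = 1). Ndufb5 read 7.39 and 8.78 against 7.37 and 8.18 in riboflavin-normal rats, and 7.24 and 6.88 against 6.74 and 6.69 in riboflavin-deficient rats, for a mean difference of -0.33 (SE 0.15, limma adjusted p = 1). In the deficient rats both neoplasias were below both adjacent tissues, and in the normal rats the tissues overlapped.

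Ndufa2, an accessory subunit of the matrix arm, read 7.47 and 8.45 in adjacent normal tissue and 7.08 and 7.40 in neoplasia of riboflavin-normal rats 1 and 2. In riboflavin-deficient rats it read 7.67 and 6.69 in adjacent normal tissue and 7.16 and 6.72 in neoplasia. It was lower in 3 of 4 rats and all but equal in riboflavin-deficient rat 2, with a mean difference of -0.48 (SE 0.17, unadjusted p = 0.0422, adjusted p = 1, limma).

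Ndufb6, another membrane arm subunit, went opposite ways in the diets. It read 5.40 and 7.56 in adjacent normal tissue and 7.04 and 8.37 in neoplasia of riboflavin-normal rats, and was higher in both neoplasias, by 1.64 and 0.81. On the deficient diet it read 6.95 and 5.95 in adjacent normal tissue and 5.83 and 5.88 in neoplasia, lower by 1.13 and 0.07. The effect was 1.23 (SE 0.35) in riboflavin-normal rats, with the lowest p of the members in that diet. Diets differed by -1.83 (SE 0.49, unadjusted p = 0.015, adjusted p = 1, limma). Its 5.40 came from the array with the poorest separation of controls (0.577), and the part of array quality was not tested.

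Ndufc2, also of the membrane arm, read 7.28 and 8.64 in adjacent normal tissue and 7.09 and 7.32 in neoplasia of riboflavin-normal rats. In riboflavin-deficient rats it read 7.20 and 6.76 in adjacent normal tissue and 7.23 and 6.95 in neoplasia. It was lower in both neoplasias of the normal diet and higher, by 0.03 and 0.19, in both of the deficient diet. The mean difference was -0.33 (SE 0.21, limma adjusted p = 1). Ndufs4, a subunit near the NADH-oxidising end, spanned pair differences from -1.67 to 0.91, and Ndufs8, which carries iron-sulphur clusters, from -0.11 to 0.13.

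Complex II feeds electrons from succinate, and its 3 members gave a median of -0.10 in the mean of both diets. Sdhc and Sdhd anchor the complex in the membrane. Sdhd read 5.36 and 6.77 in adjacent normal tissue and 5.28 and 5.70 in neoplasia of riboflavin-normal rats, and 5.23 and 5.27 against 5.33 and 5.28 in riboflavin-deficient rats. A single value, 6.77, stood above the other 7, and the mean difference was -0.26 (SE 0.20, limma adjusted p = 1). Sdhc held the same value, 7.72, on 6 of the 8 arrays, with 7.99 in adjacent normal tissue of riboflavin-normal rat 2 and 7.60 in neoplasia of riboflavin-deficient rat 1. Its mean difference of -0.10 (SE 0.12, limma adjusted p = 1) therefore rested on 2 arrays. Sdhb, the iron-sulphur subunit, differed by 0.06 (SE 0.11).

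Complex III transfers electrons from ubiquinol to cytochrome c, and all 6 of its members were lower in the mean of both diets, with a median of -0.14. In the deposited values all 6 were higher in riboflavin-normal rat 1 (median 0.21) and all 6 lower in riboflavin-normal rat 2 (median -0.73). The first median turned to -0.07 after quantile normalization and -0.09 after cyclic loess, while the second was -0.53 and -0.68. Uqcrh, the hinge protein at cytochrome c1, read 7.58 and 9.42 in adjacent normal tissue and 7.86 and 7.81 in neoplasia of riboflavin-normal rats. On the deficient diet it read 8.58 and 7.09 in adjacent normal tissue and 7.71 and 6.49 in neoplasia. It was lower in 3 of 4 rats, by 0.70 on average (SE 0.33, limma adjusted p = 1), and its groups overlapped in both diets.

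Uqcrb, a ubiquinone-binding subunit, read 10.33 and 12.06 in adjacent normal tissue and 10.57 and 10.28 in neoplasia of riboflavin-normal rats, and 10.30 and 9.64 against 10.14 and 9.53 in riboflavin-deficient rats. Its mean difference was -0.45 (SE 0.34, limma adjusted p = 1), of which riboflavin-normal rat 2 alone gave -1.77. Uqcrc2 ran from 1.39 in riboflavin-normal rat 1 to -1.02 in riboflavin-normal rat 2, and Uqcrfs1, the Rieske iron-sulphur protein, moved by no more than 0.12 in any rat.

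The chosen probe set of cytochrome c (Cycs), the carrier that also takes part in apoptosis, read 9.98 and 12.85 in adjacent normal tissue and 10.68 and 10.55 in neoplasia of riboflavin-normal rats. In riboflavin-deficient rats it read 10.58 and 9.33 in adjacent normal tissue and 9.79 and 9.90 in neoplasia. Rat 1 of the normal diet and rat 2 of the deficient diet were higher in neoplasia and the other pair of rats lower, with a mean difference of -0.46 (SE 0.55, limma adjusted p = 1). The probe set chosen for Cycs carries no Entrez identifier, unlike those of the other 38 members. By its name it lies on another chromosome than the Cycs promoter, which is on chromosome 4. Its name thus places it at a locus other than that of the gene. Whether its values are those of the gene or of a copy was not tested. The other Cycs probe set, which carries the identifier and by its name lies on chromosome 4, gave pair differences of -0.03, -2.14, -0.30 and 0.09 in riboflavin-normal rats 1 and 2 and riboflavin-deficient rats 1 and 2 (mean -0.60). The higher value of riboflavin-normal rat 1 was thus seen with the chosen probe set alone.

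Complex IV reduces oxygen, and 7 of its 8 members were lower in the mean of both diets (median -0.28). The complex IV median of riboflavin-normal rat 1 was 0.16 as deposited, -0.58 after quantile normalization and -0.44 after cyclic loess, and that of riboflavin-deficient rat 1 was -0.35, 0.41 and 0.14. Cox8a was the member that was higher. It read 6.03 and 6.74 in adjacent normal tissue and 7.12 and 7.09 in neoplasia of riboflavin-normal rats 1 and 2. On the deficient diet it read 6.18 and 5.79 in adjacent normal tissue and 6.80 and 6.21 in neoplasia. Both neoplasias were above both adjacent tissues in each diet. It was higher in 4 of 4 rats, by 1.09, 0.35, 0.62 and 0.42, which no other member was and 4.10% of all genes were. The mean difference was 0.62 (SE 0.16, a ratio of 1.54, unadjusted p = 0.0146, adjusted p = 1, limma).

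Cox6c, a small membrane subunit, read 10.53 on 5 of 8 arrays, 12.85 in adjacent normal tissue and 10.90 in neoplasia of riboflavin-normal rat 2, and 10.12 in neoplasia of riboflavin-deficient rat 2. Its mean difference of -0.59 (SE 0.34, limma adjusted p = 1) came from 2 rats. Cox7b, another small subunit, read 10.53 and 11.59 in adjacent normal tissue and 10.67 and 11.92 in neoplasia of riboflavin-normal rats, higher in both. In riboflavin-deficient rats it read 10.54 and 10.18 in adjacent normal tissue and 10.31 and 9.53 in neoplasia, lower in both, for an effect in that diet of -0.44 (SE 0.18). Diets differed by -0.67 (SE 0.26, limma adjusted p = 1).

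Muscle-type and other isoforms were then set side by side. Cox6a2 read 12.02 and 14.90 in adjacent normal tissue and 12.20 and 13.08 in neoplasia of riboflavin-normal rats, and 13.41 and 10.93 against 11.94 and 11.51 in riboflavin-deficient rats. The adjacent tissue of riboflavin-normal rat 2 was the highest and that of riboflavin-deficient rat 2 the lowest, with all neoplasias between them. Pair differences were 0.18, -1.82, -1.47 and 0.57 in riboflavin-normal rats 1 and 2 and riboflavin-deficient rats 1 and 2, for a mean of -0.63 (SE 0.48, limma adjusted p = 1). Cox8b, the muscle isoform that corresponds to Cox8a, gave 0.19, -2.29, -1.09 and 0.32 (mean -0.72, SE 0.48). Ckmt2, the mitochondrial creatine kinase of muscle, gave -0.31, -1.59, -0.66 and 0.25 (mean -0.58, SE 0.28). Slc25a4, the ADP/ATP carrier of heart and muscle, moved less and gave -0.18, 0.02, -0.23 and -0.21 (mean -0.15, SE 0.11). Unlike Cox6a2, Cox8b and Ckmt2, it was not lower in riboflavin-normal rat 2 and was lower in riboflavin-deficient rat 2.

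Among the isoforms of most other tissues, Cox6a1 gave 0.34, -1.37, -0.09 and -0.07 in the same order of rats (mean -0.30, SE 0.30). Cox7a2 gave 0.24, -2.08, -1.14 and -0.11 (mean -0.77, SE 0.43), as low as the muscle isoforms. Slc25a5, the carrier counterpart, gave 0.62, 0.33, -0.15 and -0.07 (mean 0.18, SE 0.12), and Cox8a was higher in all 4. Between the kinds of isoform the ranges of mean difference overlapped, -0.72 to -0.15 in the muscle type and -0.77 to 0.62 in the other. None of these genes passed in limma (adjusted p = 1). Cox7a1, the muscle isoform that corresponds to Cox7a2, was not analysed here.

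**Figure D3:**
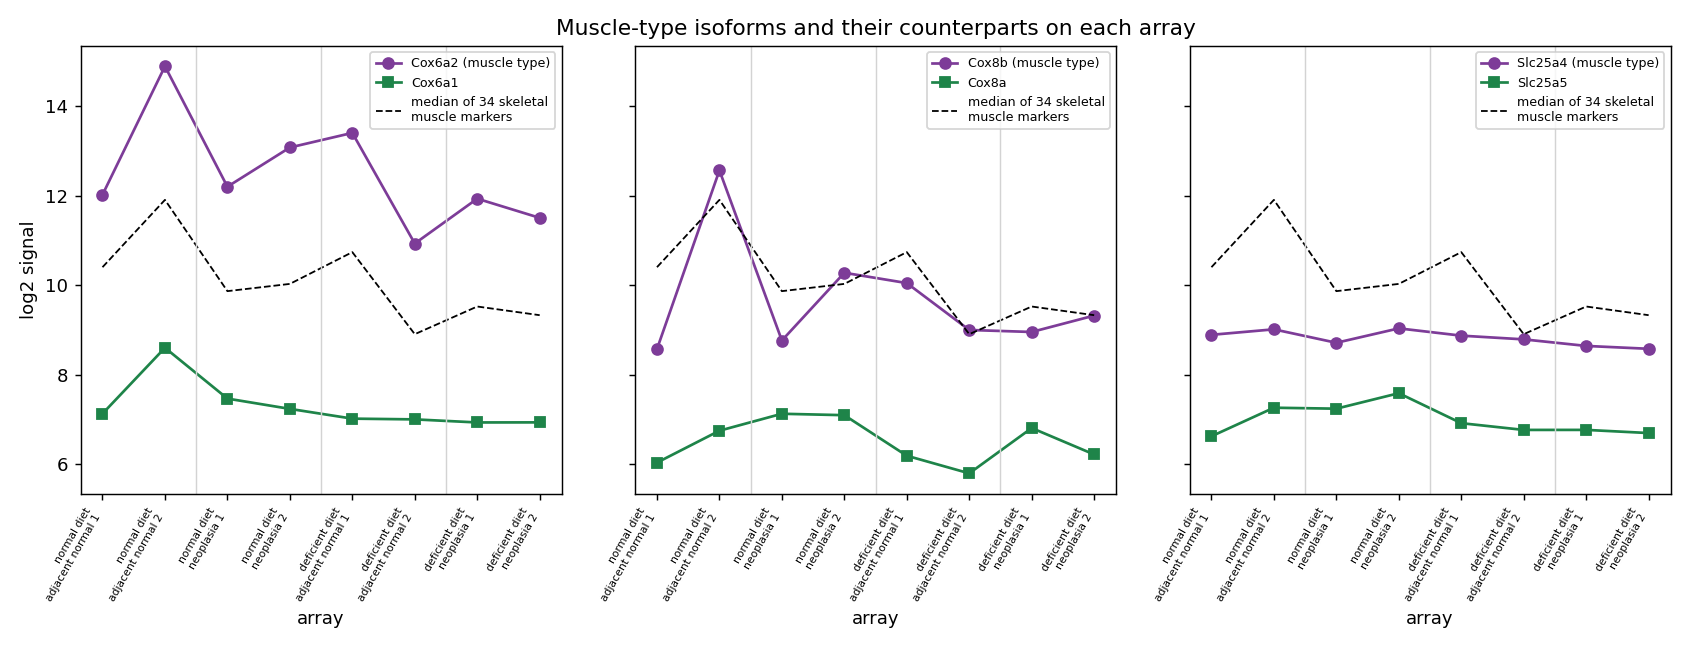
Log2 signal of 3 muscle-type genes (circles) and their counterparts in most tissues (squares) on the 8 arrays, with the median of 34 skeletal muscle markers (dashed). Cox6a2 and Cox8b peak at 14.90 and 12.57 on the array where the muscle markers reach 11.91, and the counterpart Cox6a1 peaks there too (8.60). The muscle-type Slc25a4 does not, with 9.01 there and 9.03 in neoplasia of the same rat. Cox8a is higher in neoplasia in each rat.

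By diet, the neoplasia effect had a member median of -0.26 in riboflavin-normal rats (27 of 39 lower) and -0.15 in riboflavin-deficient rats (31 lower). Both rats shared a direction for 7 members higher and 9 lower in the normal diet, against 21.0% and 17.5% of all genes, and for 4 higher and 15 lower in the deficient diet, against 24.2% and 24.6%. Without riboflavin-normal rat 2 the first median was 0.13 and without rat 1 it was -0.68. Without riboflavin-deficient rat 1 the second was -0.03, and without rat 2 it was -0.27. The second was also -0.038 after quantile normalization (15 of 39 higher), -0.037 after cyclic loess (15 higher) and -0.031 with equal SD on each array (16 higher). The difference between the diets had a median of 0.05 over members, which ran from -0.30 without riboflavin-normal rat 2 to 0.41 without riboflavin-normal rat 1. It was 0.22 after quantile normalization (28 of 39 higher), 0.27 after cyclic loess (29 higher) and 0.21 with the separation of controls as a covariate (27 higher), against 21 higher as deposited. Pair differences of the diets did not overlap for 4 members higher and 5 lower in riboflavin deficiency, against 12.9% and 15.4% of all genes. No gene was called in any of these 3 comparisons (0% called, limma), while 806 (3.65%), 425 (1.92%) and 760 (3.44%) genes had an unadjusted p under 0.05, among them 3, 0 and 1 members.

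Riboflavin deficiency was then compared with the normal diet within each tissue, between rats. In adjacent normal tissue members were lower in deficiency by a median of 0.40, with 35 lower and 4 higher, while all genes had a median of 0.02. The groups did not overlap for 8 lower members, namely Ndufa6, Ndufb5, Ndufc2, Ndufs4, Ndufs7, Sdhd, Uqcrb and Uqcrc1, and for no higher member, against 8.78% and 11.8% of all genes. The lowest p-values were those of Ndufc2 (-0.98, SE 0.43) and Uqcrb (-1.22, SE 0.57), at an adjusted p of 1 (limma). The median was 0.03 without riboflavin-normal rat 2, and -1.04 without riboflavin-normal rat 1. It was -0.13 without riboflavin-deficient rat 2, and -0.60 without riboflavin-deficient rat 1. Quantile normalization gave -0.25, cyclic loess -0.29, equal SD on each array -0.27 and the separation of controls as a covariate -0.21. Markers of other cells were lower too, all 8 of fibroblasts (median -1.08), all 10 of smooth muscle (-0.92) and all 34 of skeletal muscle (-0.80), while 11 of 14 squamous epithelium markers were higher (0.18). Their part in the difference was not tested. No gene was called (0%), and 524 genes (2.37%) but no member had an unadjusted p under 0.05.

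Within neoplasia, 38 of 39 members were lower in riboflavin deficiency, with a median of -0.37 against 0.02 for all genes. Genes of higher signal were lower in general. In the upper 50% of genes by mean, which held 37 of the members, the median was -0.12 for all genes and -0.38 for members. The groups did not overlap for 18 lower members and for 1 higher, Ndufs7, which carries the last iron-sulphur cluster of complex I, against 23.2% and 26.0% of all genes. Cycs was among the lower members by its chosen probe set. Its other probe set read 9.60 and 9.37 in riboflavin-normal and 9.52 and 8.95 in riboflavin-deficient neoplasia, and its groups overlapped. Complex I had a median of -0.37, complex II of -0.17, complex III of -0.47 and complex IV of -0.64. Cox7b read 10.67 and 11.92 in riboflavin-normal neoplasia and 10.31 and 9.53 in riboflavin-deficient neoplasia, lower by 1.38 on the log2 scale (SE 0.54, unadjusted p = 0.0412, adjusted p = 0.851, limma). Ndufb6 read 7.04 and 8.37 against 5.83 and 5.88, a difference of -1.85 (SE 0.78, limma adjusted p = 0.851). Ndufs7 read 5.70 and 5.81 against 6.19 and 5.89, a difference of 0.28 (SE 0.15, limma adjusted p = 0.851). No gene was called (0%), and 1122 genes (5.08%), 1 of them a member, had an unadjusted p under 0.05. With 2 arrays against 2, an exact test cannot go below p = 0.333.

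In the deposited values, other gene lists and the separation of controls moved with the lower values in riboflavin-deficient neoplasia. All 14 squamous epithelium markers were lower, with a median of -1.99, and the groups did not overlap for 13 of them. All 46 ribosomal protein genes were lower, with a median of -0.93, as were 13 of 14 ATP synthase genes (median -0.46). Controls separated at 0.696 and 0.694 in riboflavin-normal neoplasia and at 0.617 and 0.600 in riboflavin-deficient neoplasia. The median of the members became 0.034 after quantile normalization, -0.042 after cyclic loess and 0.18 with the separation of controls as a covariate, so its direction was kept under cyclic loess alone of these 3. As deposited, skeletal muscle markers had a median of -0.44 (27 of 34 lower), fibroblast markers of -0.36 (8 of 8 lower) and smooth muscle markers of -0.34 (9 of 10 lower). The skeletal muscle median turned to 0.30, 0.18 and 0.21 under the same 3 settings, and to 0.21 with equal SD on each array. Ribosomal protein genes stayed lower, at -0.24, -0.40, -0.11 and -0.44 in that order. Adipocyte markers were higher, 7 of 7, with a median of 0.46, and Adipoq, an adipocyte hormone named after its values were seen, read 8.36 in neoplasia of riboflavin-deficient rat 1 against 4.50 to 5.11 on the other arrays. The part of cell content and array quality was not tested. Members of high signal differed more, with medians of -0.59, -0.49 and -0.14 in the 13 highest, the 13 middle and the 13 lowest by mean signal.

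**Figure D4:**
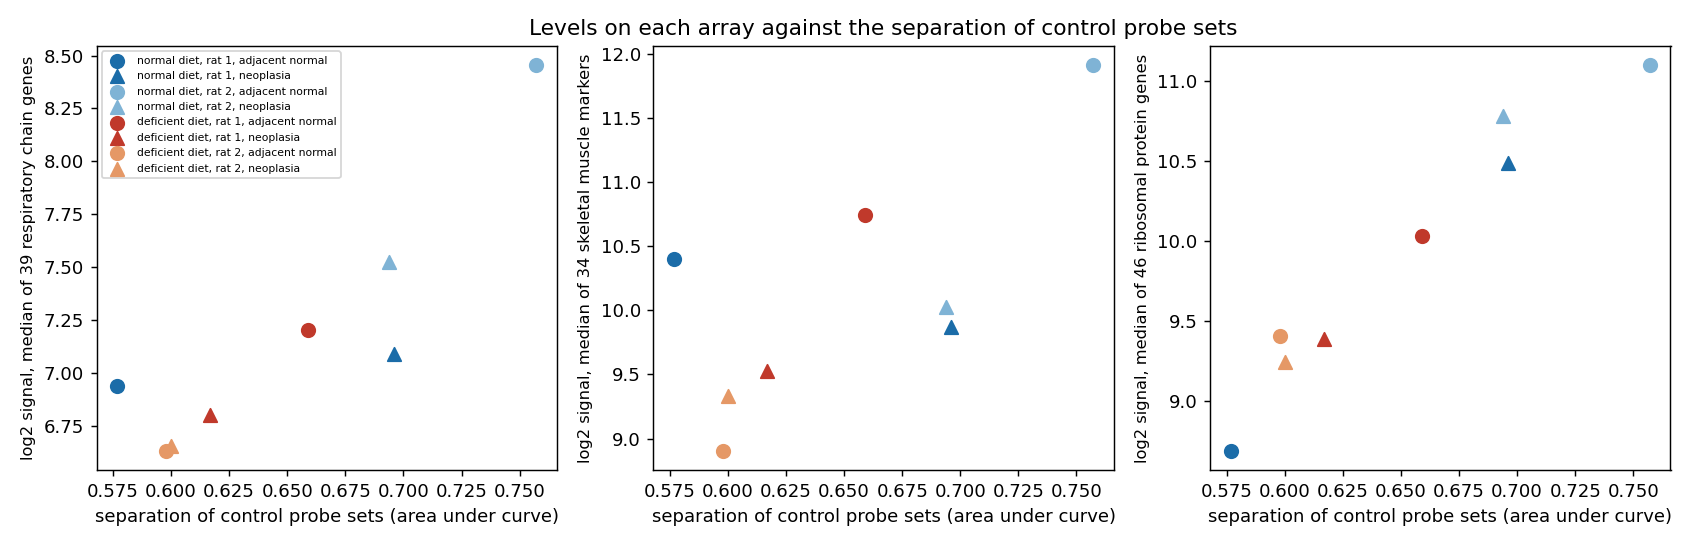
Median log2 signal of respiratory chain genes, skeletal muscle markers and ribosomal protein genes (vertical axes) on each array against the separation of control probe sets (horizontal axis, area under the curve), with colour for the rat and shape for the tissue. Adjacent normal tissue of riboflavin-normal rat 2 is at the upper right of each panel, and both riboflavin-deficient neoplasias lie at 0.617 or below.

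The flavin-binding subunits, which hold the cofactors made from riboflavin, lie outside the 40 genes and were read beside them. Ndufv1, which binds FMN in complex I, differed between diets by 0.02 in neoplasia (SE 0.31, limma adjusted p = 0.996) and by -0.25 in adjacent normal tissue (SE 0.31, limma adjusted p = 1), and between tissues by -0.13 (SE 0.18). Sdha, which binds FAD in complex II, differed between diets by 0.01 in neoplasia (SE 0.31, limma adjusted p = 0.996) and by -0.48 in adjacent normal tissue (SE 0.31, limma adjusted p = 1). It was lower in neoplasia in all 4 rats, by 0.18, 1.08, 0.23 and 0.04, with a mean of -0.38 (SE 0.18, limma adjusted p = 1).

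Related lists were described in the same way for the mean difference between tissues. Of 28 other subunits of complexes I to IV, 23 were measured and 19 were lower in neoplasia (median -0.13), with the lowest p-values in Ndufa12 (-0.50, SE 0.16) and Uqcr10 (-1.12, SE 0.45). Of 16 ATP synthase genes 14 were measured and 12 were lower (median -0.18), and Atp5pf, a stalk subunit, was lower in all 4 rats, by 0.63 on average (SE 0.19). Of 16 genes of the tricarboxylic acid cycle 14 were measured and 12 were lower (median -0.21). Assembly factors of the complexes (36 of 39 measured) had a median of -0.03, regulators of mitochondrial biogenesis (12 of 12) of -0.02, and genes of mitochondrial membrane transport and import (13) of -0.02. Regulators had array medians of 5.27 to 5.47, a low signal close to the table median. None of these genes passed in limma (adjusted p = 1). The 3 mitochondrially encoded subunits with a usable probe set, COX1, COX2 and COX3, were at the ceiling of 19.93 on all 8 arrays, and no difference in them could be read.

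**Figure D5:**
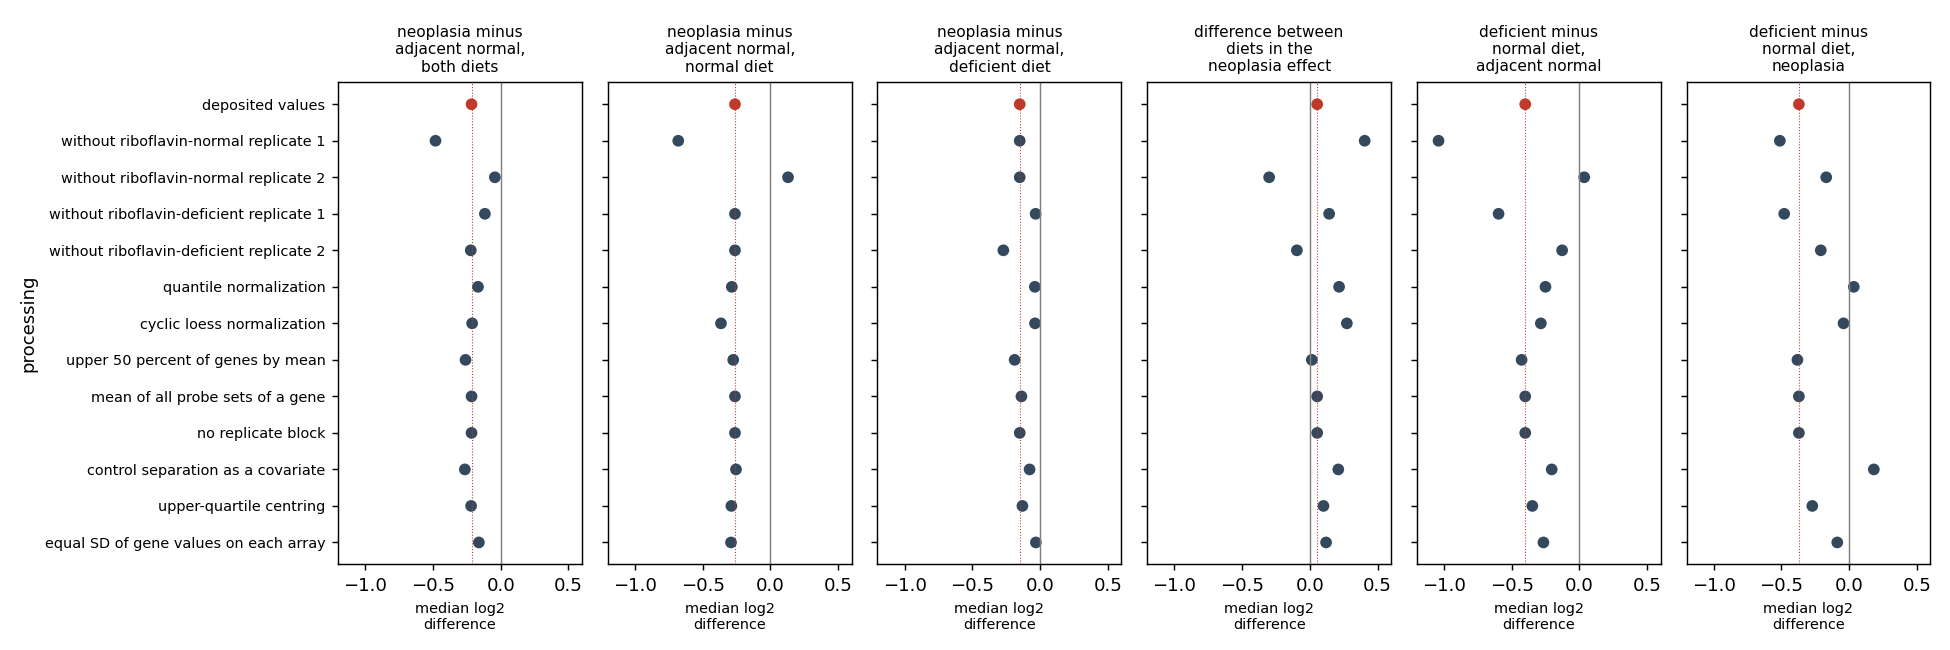
Median log2 difference of the respiratory chain genes (horizontal axes) in each of the 6 comparisons (panels) under the deposited values (red) and each alternative (rows). The median of neoplasia against adjacent normal tissue over both diets runs from -0.48 to -0.04, and that between diets in neoplasia runs from -0.51 to 0.18.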

How the data were processed

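Total RNA from fixed, embedded oesophagus was amplified with a kit for such tissue and hybridised as biotin-labelled cDNA, per the labels' protocols. The authors deposited log2 values, and the submitters' processing notes name RMA and Affymetrix Expression Console. RMA subtracts background, normally brings arrays to a common distribution and combines the probes of a probe set. The deposited gene values still differed in spread between arrays (SD 1.33 to 1.75). Versions and the probe sets' genome build are not given in the sources used here.

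The table held 70580 probe sets on 8 arrays, with values from 2.43 to a ceiling of 19.93. In the platform annotation 23446 had 1 symbol, 505 several, and 46629 were unnamed or controls. Symbols were updated by Entrez identifier (22077 matched, 1 changed). The probe set of highest mean was kept for each of 22093 genes.

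Groups and rats came from the titles, and both tissues of a rat share an animal code in the descriptions. Deviations of the paired arrays from their group means correlated at 0.188 and 0.157 over all genes in the normal and deficient diet. Tissues were compared with limma 3.58.1 (R 4.3.3) in a model with a block per rat (2 residual degrees of freedom), and diets in a model of group means (4), with Benjamini-Hochberg adjustment over all genes and a threshold of 0.05. The fit of tissues over both diets was tested on simulated data with known changes. The simulation gave all genes the same spread, with no differences between rats or in array quality. It therefore does not show how the fit performs on data like these. The other comparisons were not tested in this way. The separation of controls compares 399 positive with 1153 negative control probe sets. Precision is limited by the number of arrays. P-values of the diet comparisons use a spread between rats pooled over all groups, with 2 rats per group. Those of a tissue thus draw on the spread in the other tissue too, and both tissues of a rat are treated as independent.

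The members and all gene lists were chosen with earlier results of these data known. Values on every array are given for the 2 members of lowest unadjusted p per complex in the mean tissue comparison and in each other comparison, for members alike in all 4 rats, for the highest and lowest signal, and for Cox6a2. A panel of isoforms and flavin subunits and at most 2 genes of each other list were named too. Alternatives were other normalizations, a filter keeping the upper 50% of genes by mean, all probe sets averaged, no block per rat, the control separation as covariate, and leaving out each rat. Upper-quartile centring, equal SD on each array, the MEF2 motif and all listed promoter windows were added after seeing the data.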

Additional observations from a re-analysis of the deposited data

Results flagged for a closer look

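In 7 of 39 members (17.9%), neoplasia moved one way in both riboflavin-normal rats and the other way in both riboflavin-deficient rats, as did 2415 of 22093 genes (10.9%). Values are the effect in the deficient diet minus that in the normal diet, on the log2 scale. Complex I held 4 of these genes, Ndufb3 (-0.37), Ndufb6 (-1.83), Ndufc2 (0.86) and Ndufs7 (0.41). The others were Sdhb (-0.35) and Sdhd (0.63) of complex II and Cox7b (-0.67) of complex IV. Ndufb3, Ndufb6, Sdhb and Cox7b were higher in neoplasia of the normal diet and lower in that of the deficient diet. The reverse held for Ndufc2, Ndufs7 and Sdhd. Some of these directions rest on near-equal values. In riboflavin-deficient rat 2, Sdhd read 5.27 in adjacent normal tissue and 5.28 in neoplasia, Ndufb3 8.99 and 8.98, and Sdhb 6.34 and 6.30. Cox7b differed more there, at 10.18 and 9.53. The value of Sdhd rests mainly on 1 array, adjacent normal tissue of riboflavin-normal rat 2 (6.77). The difference between the diets, tested in limma over all genes, gave an adjusted p of 1 for each of the 7. With 2 rats per diet, the spread between rats of a diet rests on 1 difference each.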

How the results depend on the processing

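No gene passed in any of the 6 comparisons under any alternative run. The fit with no replicate block called 0 genes (382 at an unadjusted p under 0.05, against 485 with the pairing). Its member median of -0.21 is the same by design, since every rat gave both tissues. Leaving out each rat moved the member median between -0.48 and -0.04 for tissues over both diets, -0.68 and 0.13 in the normal diet, -0.27 and -0.03 in the deficient diet, -0.30 and 0.41 for the difference between diets, -1.04 and 0.03 between diets in adjacent normal tissue, and -0.51 and -0.17 in neoplasia. The last, -0.37 as deposited, was 0.034 after quantile normalization, -0.042 after cyclic loess, 0.18 with the control separation as covariate and -0.088 with equal SD on each array, an alternative chosen after seeing the data. Tissues over both diets gave -0.17, -0.21, -0.26 and -0.16 under the same 4. Of the medians by complex, 255 moved by less than the spread between replicates and 33 by more, and of the values of single genes 995 and 79. Part of these could not move, so the counts do not measure stability. Dropping the block leaves every difference as it was, and leaving out a rat leaves the tissue effect of the other diet unchanged. Averaging probe sets can change only 2 members. The cause was not tested. With CCGGAAG searched in a shorter window nearer the start, it was found in 28.6% of member promoters and 7.28% of all promoters. Poor separation of controls on some arrays and 2 rats per diet limit all comparisons.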
